A study of Mus musculus with 12 samples.

Results

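Integrins are adhesion receptors made of 1 α and 1 β chain, and 10 integrin genes of macrophages were followed here through RNA-seq counts of RAW264.7 cells, a mouse macrophage line. The members, taken by gene symbol, were the α chain genes Itgal, Itgam, Itgax, Itga4, Itga5, Itga6 and Itgav and the β chain genes Itgb1, Itgb2 and Itgb7. They are 10 of 32688 genes counted, and all 10 were among the 18066 genes that passed the filter on low counts. The 4 groups, of 3 libraries each, were Null control, Null etoposide, DKO control and DKO etoposide. Null cells are the line with TFEB and TFE3 intact (WT in the study), and DKO cells are 1 line in which both of these transcription factor genes had been targeted by CRISPR. Etoposide, a topoisomerase II poison that breaks DNA, was given at 100 µM for 8 h. The labels call the control cells untreated and the study's methods name DMSO, which was not settled here.

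Each genotype is a single line, so the p-values measure the spread between libraries of that line and not between independently made lines, and that spread may be technical. Totals ran from 29837255 to 61809316 counts per library. Levels are given as CPM (counts scaled to a common library size), and comparisons between genes as RPKM (CPM per kilobase of merged exons). DKO control replicate 1 stood apart from its group: it differed from the other DKO control libraries by 45.8 and 53.6 times the counting error in squared difference, and these from each other by 6.40 times. Other groups were spread too, with 36.6 times between Null control replicates 1 and 3 and 23.5 times between DKO etoposide replicates 2 and 3. Tfeb lay between 16.6 and 17.2 CPM in Null control and between 3.14 and 5.25 CPM in DKO control libraries, and Tfe3 between 89.4 and 119 and between 31.5 and 42.5 CPM, so transcripts of both were lower but present in the DKO line. After etoposide Tfeb was 7.10 to 7.95 CPM in Null and 4.27 to 4.44 CPM in DKO libraries, and Tfe3 was 99.1 to 103 and 34.2 to 40.4 CPM. The titles of the 3 DKO etoposide libraries name MEFs (embryonic fibroblasts), against their other labels. All 8 macrophage markers were at 1 CPM or more in every library, with a summed level of 4283 to 5901 CPM, although Fcgr1 was only 4.72 to 5.42 CPM in DKO etoposide. The 8 fibroblast markers together reached at most 2.04 CPM in any library and 1.20 CPM in those 3 libraries, where Lum was at 0. The T cell and B cell lists summed to at most 0.227 and 1.58 CPM.

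An integrin heterodimer links the outside of the cell to talin, kindlin and the actin cytoskeleton. The β2 chain (Itgb2) is restricted to leukocytes and pairs with αL (Itgal, the LFA-1 chain that binds ICAMs), αM (Itgam, CD11b of Mac-1, a receptor for iC3b and fibrinogen) and αX (Itgax, CD11c, used as a marker of dendritic cells and of some tissue macrophages). The α4 chain (Itga4) pairs with β1 as the VCAM-1 and fibronectin receptor VLA-4, or with β7 as a receptor for MAdCAM-1. The β1 chain (Itgb1) also pairs with α5 (Itga5, the classical fibronectin receptor), α6 (Itga6, a laminin receptor) and αv (Itgav, which binds vitronectin and other RGD ligands).

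Itgam and Itgax are neighbours on chromosome 7, and promoter windows (250 bases before to 50 after the RefSeq start, GRCm38.p6) are shown for this pair, whose transcripts differed in opposite directions between genotypes, and for Itgav and Itgb7, where a motif was found. On the plus strand Itgam lies at chr7:128062390-128062689, Itgax at chr7:128129300-128129599 and Itgav at chr2:83724147-83724446, and Itgb7 is on the minus strand at chr15:102231886-102232185. Capitals mark GAGGAAGT, a purine-rich sequence of the kind bound by the myeloid factor PU.1, here read on the opposite strand.
Itgam: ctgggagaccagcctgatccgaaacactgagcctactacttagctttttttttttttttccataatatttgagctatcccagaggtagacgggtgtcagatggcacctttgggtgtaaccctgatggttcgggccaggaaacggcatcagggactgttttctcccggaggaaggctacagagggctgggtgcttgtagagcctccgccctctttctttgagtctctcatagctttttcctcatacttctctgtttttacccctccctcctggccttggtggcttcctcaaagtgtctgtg
Itgax: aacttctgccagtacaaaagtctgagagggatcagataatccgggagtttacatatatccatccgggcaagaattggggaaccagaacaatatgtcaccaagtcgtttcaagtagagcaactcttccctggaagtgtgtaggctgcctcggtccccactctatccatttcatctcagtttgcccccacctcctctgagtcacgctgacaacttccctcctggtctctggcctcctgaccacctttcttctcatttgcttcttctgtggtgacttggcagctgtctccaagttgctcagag
Itgav: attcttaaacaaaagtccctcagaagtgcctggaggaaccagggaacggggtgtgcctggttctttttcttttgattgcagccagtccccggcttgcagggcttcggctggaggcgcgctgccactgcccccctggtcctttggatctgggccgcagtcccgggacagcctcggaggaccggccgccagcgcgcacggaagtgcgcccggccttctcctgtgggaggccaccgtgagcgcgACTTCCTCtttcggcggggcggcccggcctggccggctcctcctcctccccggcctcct
Itgb7: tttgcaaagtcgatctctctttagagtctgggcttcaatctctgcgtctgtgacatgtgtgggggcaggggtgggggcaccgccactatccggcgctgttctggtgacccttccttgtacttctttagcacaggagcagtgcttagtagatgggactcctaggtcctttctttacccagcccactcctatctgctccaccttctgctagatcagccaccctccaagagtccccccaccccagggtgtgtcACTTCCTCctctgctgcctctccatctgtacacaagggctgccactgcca
The table of promoters held 7 of the 10 members (not Itgal, Itgb2 or Itga6). CACGTG, the palindromic E-box core of the CLEAR element that TFEB and TFE3 recognise, was in 0 of the 7 windows and in 7.15% of 32851 promoters. GAGGAAGT, searched on both strands, was in 2 of the 7 and in 3.20% of all promoters. The copy in Itgav begins 9 bases before the start and the copy in Itgb7 begins at the start itself. These matches describe the letters of the windows only.

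Expression was next set out per length. In Null control cells the order was Itga4 (193 RPKM), Itgb2 (60.3), Itgam (44.7), Itgb1 (27.3), Itgal (5.48), Itgav (5.01), Itga5 (4.43), Itga6 (2.25), Itgb7 (1.09) and Itgax (0.0509). Libraries of the neighbours Itgal and Itgav, and of Itgav and Itga5, overlapped, and those of the other neighbours did not. Among protein coding genes by mean RPKM, Itga4 ranked 149th in Null control, 319th in DKO control, 671st in Null etoposide and 871st in DKO etoposide cells. In DKO etoposide cells the order was Itgb2 (108 RPKM), Itgam (68.2), Itga4 (42.1), Itgb1 (30.1), Itga5 (19.3), Itgav (8.60), Itgax (6.66), Itgal (4.93), Itgb7 (3.69) and Itga6 (3.35), with no overlap between neighbours. The α4 gene held place 1 in both control groups and place 3 in both etoposide groups. Itgax held place 10 in Null control, DKO control and Null etoposide cells, and place 7 in DKO etoposide cells. The places of Itgam are uncertain, since it shares exon bases with the gene Gm49368.

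**Figure D1:**
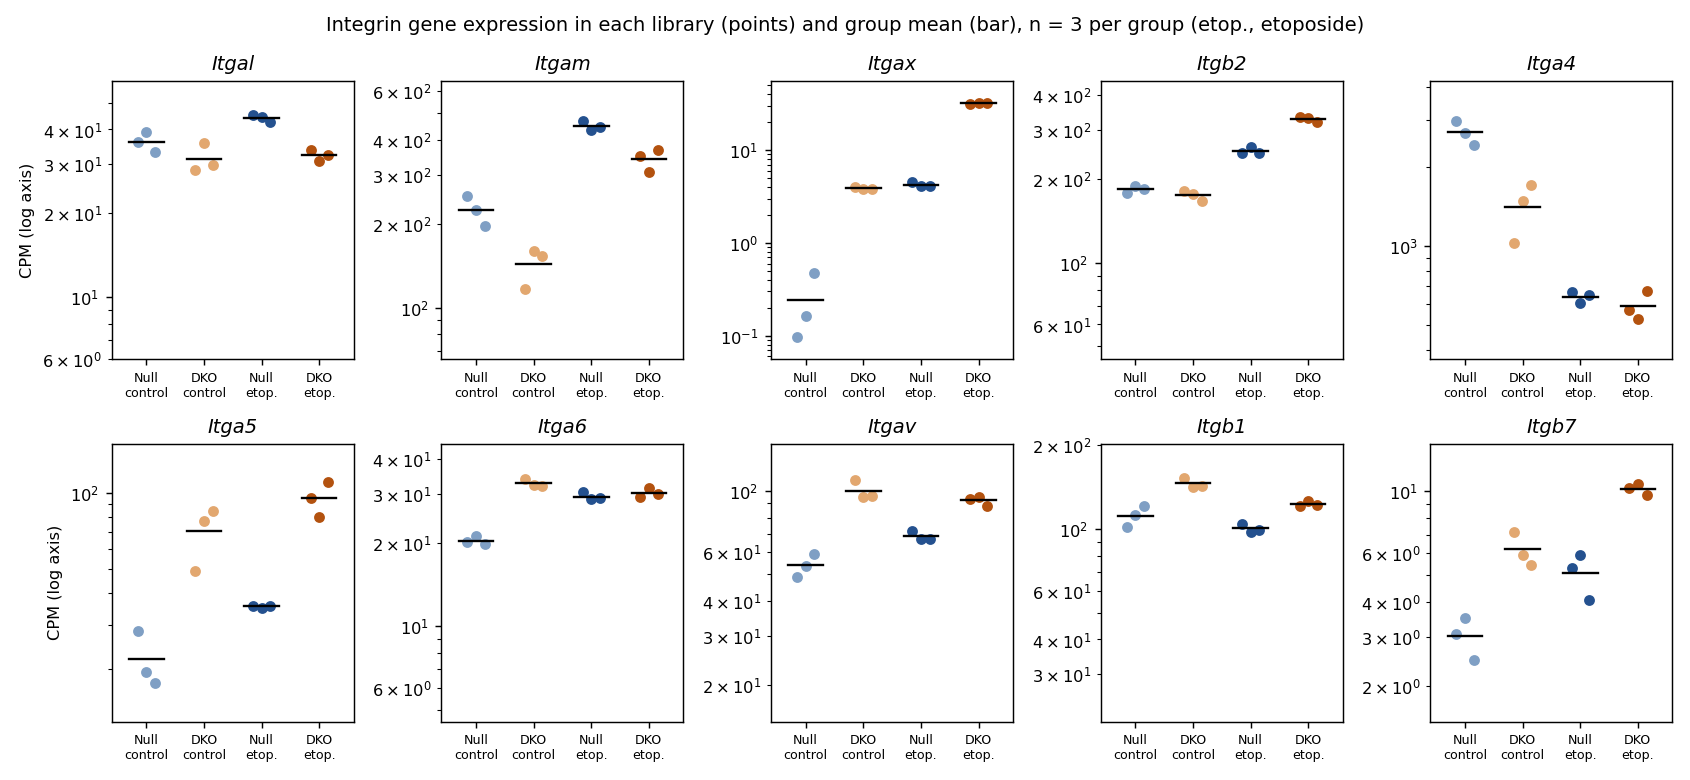
CPM of each of the 10 integrin genes (log axis) in Null and DKO cells, control and after etoposide, where each point is 1 library and each bar the mean of 3. Itgax runs from 0.0973 CPM in a Null control library to 32.1 CPM in a DKO etoposide library, and Itga4 from 2983 CPM to 525 CPM.

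The response to etoposide in Null cells was compared first. Etoposide changed 9 of the 10 members, against 39.6% of all genes tested, with 8 higher (20.9% of all genes) and 1 lower (18.7%). Itgax and Itgam rose, Itga4 fell, and the median of the members was 0.49 on the log2 scale beside 0.03 for all genes. In DKO cells etoposide changed 6 members (39.3% of all genes), 4 higher (20.2%) and 2 lower (19.1%). Libraries of the groups did not overlap for 9 members in Null cells (53.0% of all genes) and 8 in DKO cells (46.4%). The tests are limma-trend over all 12 libraries with Benjamini-Hochberg adjustment, and the same test gives every adjusted p below. Values with ± beside an adjusted p are log2 differences in CPM with their standard error.

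DKO cells were then compared with Null cells. In control cells 8 members differed (19.3% of all genes), with 6 higher in DKO (10.9%) and 2 lower (8.39%). After etoposide 8 differed (33.6%), with 6 higher (15.9%) and 2 lower (17.8%), and libraries did not overlap for 8 members in control (27.6% of all genes) and 8 after etoposide (55.6%). Itgax, Itga5, Itgav, Itgb1 and Itgb7 were higher and Itgam was lower in DKO cells in both conditions. These comparisons share libraries with the etoposide responses. The response itself differed between genotypes for 4 members (9.45% of all genes), being more positive in DKO cells for Itgb2 and Itga4 (3.07%) and less positive for Itga6 and Itgav (6.39%). As RNA of whole cultures was measured, a smaller share of cells that express a gene and less of its RNA in each cell cannot be told apart.

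**Figure D2:**
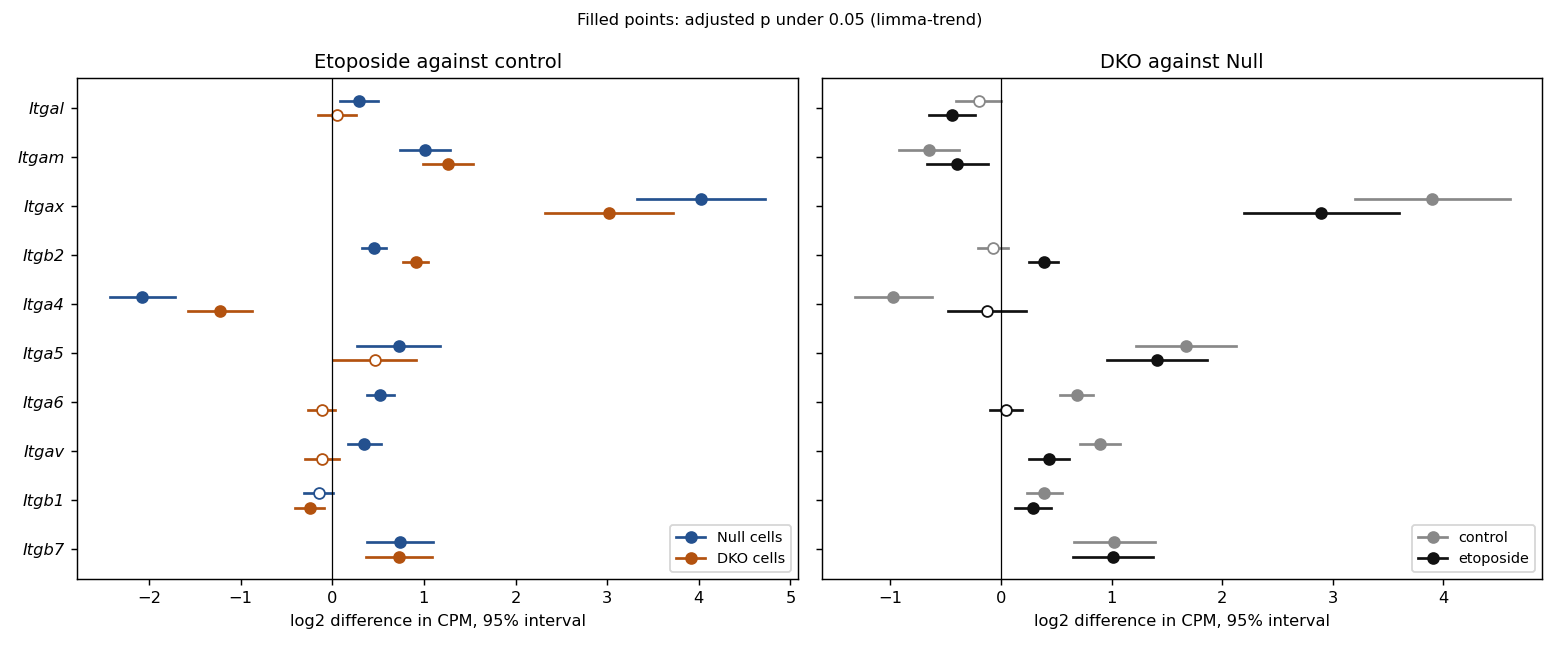
Log2 difference in CPM (point) with its 95% interval (line) for etoposide against control in each genotype and for DKO against Null in each condition. Filled points have an adjusted p under 0.05, and Itgax lies furthest from 0 in all 4 comparisons, between 2.90 and 4.02.

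Of the β2 family, Itgax (ENSMUSG00000030789, chr7:128129547-128150657, plus strand) varied most. It held 3, 8 and 23 counts in the 3 Null control libraries, or 0.0973, 0.162 and 0.474 CPM. DKO control libraries gave 3.98, 3.86 and 3.84 CPM (126 to 215 counts), Null etoposide libraries 4.49, 4.09 and 4.15 CPM, and DKO etoposide libraries 31.8, 32.1 and 32.1 CPM. The Null control libraries were thus the only ones below 1 CPM, the DKO control and Null etoposide libraries were close to each other, and the DKO etoposide libraries stood above all others. Mean CPM rose 17.4-fold with etoposide in Null cells (log2 difference 4.02 ± 0.32 SE, adjusted p = 9.9e-07) and 8.21-fold in DKO cells (3.02 ± 0.32, adjusted p = 1.0e-05). DKO cells exceeded Null cells 15.9-fold in control (3.90 ± 0.32, adjusted p = 2.1e-06) and 7.54-fold after etoposide (2.90 ± 0.32, adjusted p = 1.8e-05).

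The low counts in Null control limit the folds against that group. With a prior count of 1 in place of 3, the response of Itgax in Null cells was 4.28 on the log2 scale, and leaving out single libraries moved it between 3.66 and 4.53. The difference of DKO from Null control cells was 4.16 with that prior count, and leaving out single libraries moved it between 3.54 and 4.41. The response in DKO cells minus that in Null cells was -1.01 ± 0.45 on the log2 scale (95% interval -1.99 to -0.02), which was not called (adjusted p = 0.23). Without Null control replicate 3, which held the 23 counts, this difference was -1.51 with an adjusted p of 0.00048.

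Itgam (ENSMUSG00000030786, chr7:128062640-128118491, plus strand) ends 11055 bases before Itgax begins. Its levels were 252, 225 and 196 CPM in Null control libraries and 468, 434 and 446 CPM in the Null libraries with etoposide, against 117, 160 and 154 CPM in DKO control libraries and 352, 308 and 368 CPM in the DKO libraries with etoposide. Etoposide raised Itgam in both genotypes with no overlap of the groups, 2.00-fold in Null cells (1.01 ± 0.13, adjusted p = 4.3e-05) and 2.39-fold in DKO cells (1.26 ± 0.13, adjusted p = 5.6e-06). Unlike Itgax it was lower in DKO than in Null cells, in control (-0.65 ± 0.13, adjusted p = 0.0024) and after etoposide (-0.40 ± 0.13, adjusted p = 0.029). DKO control replicate 1 was the lowest library, and without it the control difference was -0.53 (adjusted p = 0.0027) and the response in DKO cells 1.13 (adjusted p = 2.4e-06).

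The lower level of Itgam in DKO cells after etoposide lost its call (adjusted p of 0.057 to 0.12) without any single one of Null etoposide replicates 1, 2 and 3 and DKO etoposide replicates 1 and 2. Gm49368, annotated as a protein coding gene on the same strand, shares 3450 of the 5024 exon bases of Itgam. At the read density of Gm49368 these bases would hold 63.0% of the counts of Itgam. The counts of Gm49368 were 85.3% to 89.2% of those of Itgam in every library. Its own log2 differences were 1.06 and 1.27 for etoposide and -0.62 and -0.41 for DKO against Null. Counts of the 2 genes cannot be separated, and the values of Itgam hold for the pair.

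Itgb2 (ENSMUSG00000000290, chr10:77530252-77565708, plus strand), the shared β chain, was measured at 178, 189 and 185 CPM in Null control and at 181, 177 and 167 CPM in DKO control, where the groups overlapped. After etoposide it reached 249, 260 and 247 CPM in Null and 335, 333 and 320 CPM in DKO cells. All etoposide libraries lay above all control libraries, and those of DKO cells above those of Null cells. The rise was 1.37-fold in Null cells (0.46 ± 0.06, adjusted p = 8.9e-05) and 1.88-fold in DKO cells (0.91 ± 0.06, adjusted p = 1.8e-07). The responses differed by 0.46 ± 0.09 (adjusted p = 0.0052), and this call was kept without each single library.

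Itgal (ENSMUSG00000030830, chr7:127296260-127335138, plus strand) moved least among the members that pair with β2. It read 35.9, 39.0 and 33.1 CPM in Null control libraries and 44.9, 44.5 and 42.6 CPM in the Null libraries with etoposide, against 28.5, 35.9 and 29.9 CPM in DKO control libraries and 33.8, 30.9 and 32.4 CPM in the DKO libraries with etoposide. After etoposide the DKO libraries all lay below the Null libraries (-0.44 ± 0.09, adjusted p = 0.0029). The rise with etoposide in Null cells (0.29 ± 0.09, adjusted p = 0.027) passed only just. It lost its call (adjusted p of 0.050 to 0.096) without Null control replicate 1 or 3 or any of the 3 Null etoposide replicates, and with no filter on low counts (adjusted p = 0.055). In DKO cells the etoposide difference was 0.05 (95% interval -0.16 to 0.25), and between control cells it was -0.20 (-0.41 to 0.00), which was called only without DKO control replicate 2 (adjusted p = 0.031) or with library size alone as scaling (adjusted p = 0.047).

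Within a library, the 3 α chains of β2 among the members can be set beside one another per length. Itgam made up 88.9% ± 1.1 (SD, n = 3) of their summed RPKM in control and 92.2% ± 0.26 in etoposide-treated Null cells, and 83.5% ± 1.6 and 85.4% ± 1.0 in DKO cells. The share of Itgax went from 0.109% ± 0.10 to 0.910% ± 0.014 with etoposide in Null cells and from 2.42% ± 0.43 to 8.39% ± 0.71 in DKO cells. In DKO etoposide Itgax thus took a larger share than Itgal, which held 6.19% ± 0.34 there and 14.1% ± 1.3 in DKO control. The sum of the 3 α chains was 0.834 ± 0.113 times Itgb2 in control and 1.18 ± 0.07 times in etoposide-treated Null cells, against 0.597 ± 0.102 and 0.740 ± 0.072 times in DKO cells. These shares were not tested, and they carry the uncertainty of Itgam.

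**Figure D3:**
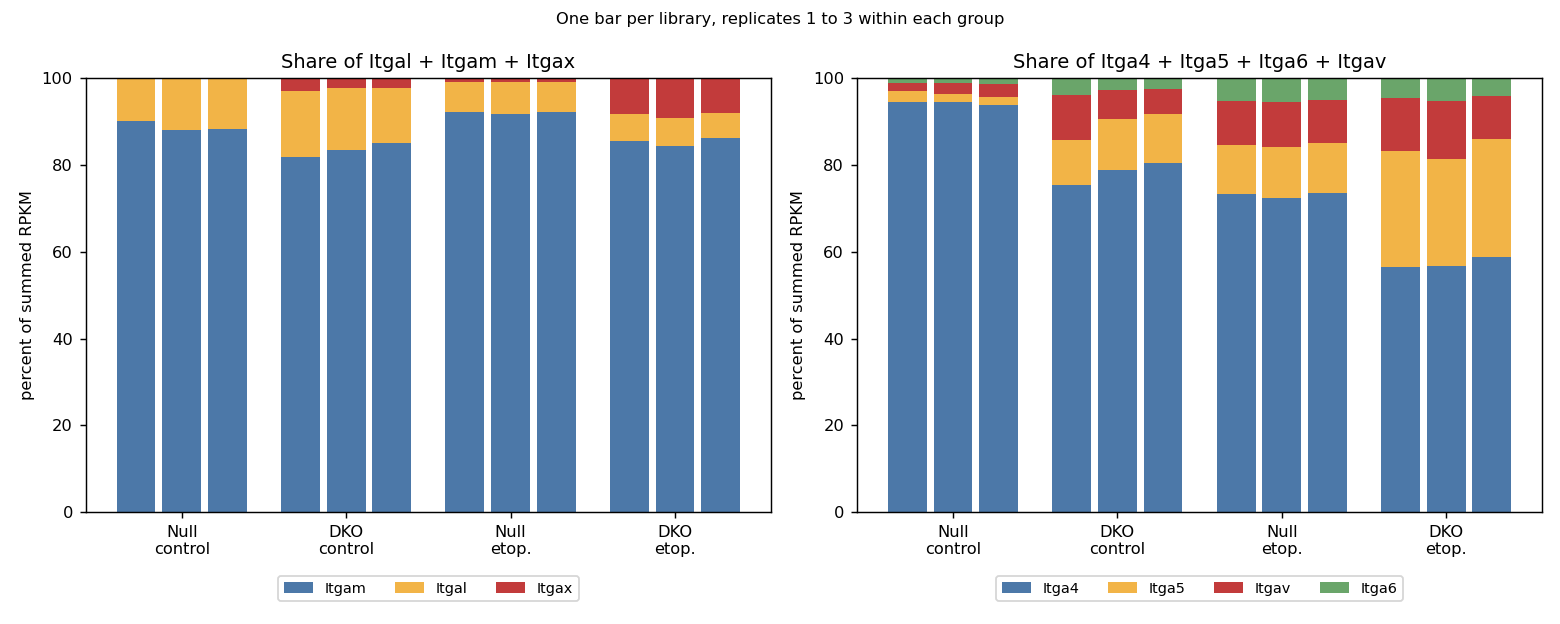
Share of each α chain gene in the summed RPKM (percent) of Itgal, Itgam and Itgax (left) and of Itga4, Itga5, Itga6 and Itgav (right), 1 bar per library. Itgax grows to 7.87% to 9.20% in DKO etoposide, and Itga4 shrinks from 93.9% to 94.5% in Null control to 56.5% to 58.8% in DKO etoposide.

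Itga4 (ENSMUSG00000027009, chr2:79255426-79333123, plus strand) was the most abundant α chain gene of control cells and the only member that fell strongly with etoposide. It gave 2983, 2689 and 2419 CPM in Null control libraries and 665, 604 and 649 CPM in the Null libraries with etoposide, against 1025, 1473 and 1697 CPM in DKO control libraries and 567, 525 and 674 CPM in the DKO libraries with etoposide. Control libraries of the 2 genotypes did not overlap, while the etoposide libraries did. Mean CPM after etoposide was 0.237 of the control mean in Null cells (-2.07 ± 0.16, adjusted p = 8.1e-07) and 0.421 of it in DKO cells (-1.22 ± 0.16, adjusted p = 6.6e-05). DKO control cells had 0.519 of the Null control mean (-0.97 ± 0.16, adjusted p = 0.00078), and after etoposide the genotypes differed by -0.12 (95% interval -0.48 to 0.23). Without DKO control replicate 1, the lowest control library, the control difference was -0.78 (adjusted p = 0.00034), the response in DKO cells -1.43 (adjusted p = 8.4e-07) and the difference of the responses 0.66 (adjusted p = 0.017).

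The fall of Itga4 was smaller in DKO cells, by 0.85 ± 0.23 (adjusted p = 0.035). That call was lost (adjusted p of 0.050 to 0.095) without Null control replicate 1 or 2, DKO control replicate 2, any Null etoposide replicate or DKO etoposide replicate 1 or 3. Cerkl, on the opposite strand, shares 1124 exon bases with Itga4, which at the read density of Cerkl would hold 3.69% of the counts of Itga4. Its counts were 12.6% to 25.3% of those of Itga4, and it fell with etoposide too (-2.31 in Null and -1.48 in DKO cells). The strand setting of the counting was not stated, so reads from the shared bases cannot be assigned.

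The β chains that pair with α4 moved otherwise. Itgb1 (ENSMUSG00000025809, chr8:128685654-128733200, plus strand) was at 101, 112 and 121 CPM in Null control libraries and 104, 97.7 and 99.2 CPM in the Null libraries with etoposide, against 152, 142 and 143 CPM in DKO control libraries and 120, 126 and 122 CPM in the DKO libraries with etoposide. DKO libraries lay above Null libraries in both conditions, by 0.39 ± 0.07 in control (adjusted p = 0.0019) and 0.29 ± 0.07 after etoposide (adjusted p = 0.0087). The etoposide difference was -0.25 ± 0.07 in DKO cells (adjusted p = 0.017) and -0.15 ± 0.07 in Null cells (95% interval -0.31 to 0.01, adjusted p = 0.14). The first was lost without DKO etoposide replicate 1 (adjusted p = 0.072) and with library size alone (adjusted p = 0.059), and the second was called without Null control replicate 1 (-0.21, adjusted p = 0.029).

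Itgb7 (ENSMUSG00000001281, chr15:102215995-102231944, minus strand) was rare, with 95 to 607 counts per library. It lay at 3.08, 3.49 and 2.47 CPM in Null control libraries and 5.30, 5.93 and 4.05 CPM in the Null libraries with etoposide, against 7.17, 5.92 and 5.46 CPM in DKO control libraries and 10.3, 10.6 and 9.68 CPM in the DKO libraries with etoposide. DKO cells had 2.05 times the Null level in control (1.03 ± 0.17, adjusted p = 0.00066) and 2.00 times after etoposide (1.01 ± 0.17, adjusted p = 0.00047). Etoposide raised it 1.69-fold in Null (0.74 ± 0.17, adjusted p = 0.0035) and 1.65-fold in DKO cells (0.73 ± 0.17, adjusted p = 0.0040). The difference between these responses was -0.02 with a 95% interval of -0.53 to 0.50. Per length, Itgb1 was 25.8 ± 6.4 times Itgb7 in control and 13.7 ± 2.7 times in etoposide-treated Null cells, against 16.2 ± 1.7 and 8.17 ± 0.35 times in DKO cells.

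Among the other partners of β1, Itga5 (ENSMUSG00000000555, chr15:103344286-103366763, minus strand) was the most different between genotypes. It reached 28.4, 19.5 and 17.6 CPM in Null control libraries and 35.8, 35.0 and 35.5 CPM in the Null libraries with etoposide, against 49.0, 77.6 and 84.4 CPM in DKO control libraries and 95.1, 80.1 and 110.0 CPM in the DKO libraries with etoposide. Every DKO library exceeded every Null library, by 3.22-fold of the means in control (1.68 ± 0.21, adjusted p = 7.5e-05) and 2.68-fold after etoposide (1.41 ± 0.21, adjusted p = 2.0e-04). Etoposide raised it in Null cells (0.73 ± 0.21, adjusted p = 0.015), a call that was lost without Null control replicate 2 (adjusted p = 0.057) or 3 (adjusted p = 0.058). In DKO cells the groups overlapped and the difference was 0.46 ± 0.21 (95% interval 0.01 to 0.91, adjusted p = 0.10). DKO control replicate 1 was the lowest DKO library, and without it the control difference was 1.90 (adjusted p = 5.7e-06) and the response in DKO cells 0.23 (adjusted p = 0.32).

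Itga6 (ENSMUSG00000027111, chr2:71745616-71858416, plus strand) was at 20.1, 21.1 and 19.8 CPM in Null control libraries and 30.4, 28.6 and 28.8 CPM in the Null libraries with etoposide, against 33.9, 32.3 and 31.9 CPM in DKO control libraries and 29.2, 31.4 and 30.0 CPM in the DKO libraries with etoposide. Null control libraries lay apart below the other 9. Etoposide raised Itga6 in Null cells (0.53 ± 0.07, adjusted p = 5.7e-05), where DKO cells gave -0.11 (95% interval -0.26 to 0.03). DKO exceeded Null in control (0.69 ± 0.07, adjusted p = 1.0e-05), and after etoposide the difference was 0.05 (-0.10 to 0.19). The responses differed by -0.64 ± 0.10 (adjusted p = 0.00087), also without each single library.

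Itgav (ENSMUSG00000027087, chr2:83724397-83806916, plus strand) followed a like course at a higher level, with 48.7, 53.5 and 59.1 CPM in Null control libraries and 71.5, 66.9 and 67.0 CPM in the Null libraries with etoposide, against 109, 95.2 and 95.6 CPM in DKO control libraries and 93.7, 95.1 and 88.4 CPM in the DKO libraries with etoposide. All DKO libraries exceeded all Null libraries, by 0.89 ± 0.08 in control (adjusted p = 6.6e-06) and 0.43 ± 0.08 after etoposide (adjusted p = 0.0016). Etoposide raised it in Null cells (0.35 ± 0.08, adjusted p = 0.0052), and DKO cells gave -0.11 (95% interval -0.29 to 0.07). The responses differed by -0.46 ± 0.12 (adjusted p = 0.028), but this call was lost (adjusted p of 0.050 to 0.098) without Null control replicate 2, DKO control replicate 1 or any of the 6 etoposide libraries, and with library size alone or with no filter (adjusted p of 0.055 and 0.051).

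With these changes the makeup of the β1 and β7 partners shifted, as the plot of shares by library shows. Itga4 made up 94.3% ± 0.33 (SD, n = 3) of the summed RPKM of Itga4, Itga5, Itga6 and Itgav in control and 73.1% ± 0.66 in etoposide-treated Null cells, and 78.3% ± 2.5 and 57.4% ± 1.2 in DKO cells. The share of Itga5 went from 2.14% ± 0.35 to 11.5% ± 0.36 with etoposide in Null cells and from 11.1% ± 0.80 to 26.2% ± 1.4 in DKO cells. The share of Itgav went from 2.48% ± 0.49 to 10.2% ± 0.27 in Null cells and from 7.65% ± 2.4 to 11.8% ± 1.7 in DKO cells. Itga6 went from 1.11% ± 0.11 to 5.19% ± 0.13 in Null cells, which was its highest mean share, and from 2.96% ± 0.80 to 4.61% ± 0.61 in DKO cells. In DKO cells the mean levels of Itgav (99.9 and 92.4 CPM) and Itga6 (32.7 and 30.2 CPM) were not higher after etoposide, so their larger shares there go with the lower Itga4 in the sum. Itga5 rose 1.35-fold in DKO cells, which was not called (adjusted p = 0.10), while Itga4 fell to 0.421 of its control mean. In Null cells Itga5, Itgav and Itga6 rose 1.62-, 1.27- and 1.44-fold in mean CPM, while Itga4 fell to 0.237 of its control mean. The larger shares of these genes thus include the fall of Itga4 in the sum. The 4 α chains summed to 7.28 ± 1.35 times Itgb1 plus Itgb7 in control and 2.36 ± 0.08 times in etoposide-treated Null cells, against 3.38 ± 0.85 and 2.18 ± 0.27 times in DKO cells. This ratio leaves out Itgb5, another partner of αv, so it is not the level of α chains per partner β chain. Itgb5 averaged 81.6 CPM in control and 45.8 CPM in etoposide-treated Null cells, and 101 and 38.0 CPM in DKO cells. Itgb2 was 2.22 ± 0.16 times Itgb1 in Null control cells and 1.61 ± 0.05 times in DKO control cells, and etoposide brought this ratio to 3.36 ± 0.19 and 3.59 ± 0.12.

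The genes with the pattern most like a member were sought over the 4 group means of log2 CPM, centred on their mean, for the 3 members with the widest range. Nearest to Itgax were Gm18445 (root mean square difference of 0.54 log2 units), Zfp365 (0.57) and Ptpn5 (0.57). Ptpn5 ran from 0.801 CPM in Null control over 12.3 in DKO control and 5.08 in Null etoposide to 69.8 CPM in DKO etoposide. Nearest to Itga4 were Gm45597 (0.11), Gm26527 (0.14) and Mast4 (0.14), of which Mast4 had means of 16.3, 10.6, 3.90 and 3.71 CPM in that order of groups. Nearest to Itga5 were Arrdc4 (0.06), Gm15602 (0.08) and Aph1b (0.10), with Arrdc4 at 3.02, 8.64, 4.68 and 12.7 CPM. The neighbours of Itgax were the least close, as no gene tested came within 0.5 log2 units.

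Of the other 17 integrin subunits listed, 11 were tested, and only Itgb5, a partner of αv, was above 5 CPM. It averaged 81.6 CPM in Null control and 101 CPM in DKO control and fell with etoposide in Null (-0.83 ± 0.08, adjusted p = 3.9e-06) and in DKO cells (-1.41 ± 0.08, adjusted p = 2.6e-08) with a response that differed between them (-0.58 ± 0.11, adjusted p = 0.0050). Thus αv and this β chain moved in opposite directions in Null cells. Etoposide changed 2 of the 11 upward and 1 downward in Null cells (27.3% called, against 39.6% of all genes) and 1 upward and 3 downward in DKO cells (36.4% against 39.3%), which is no larger a share than over all genes. DKO against Null gave 1 higher and 2 lower in control (27.3% against 19.3%) and 0 higher and 4 lower after etoposide (36.4% against 33.6%, a share near that of all genes). Itgb3, the platelet and osteoclast chain, was under 0.25 CPM on average in every group.

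The activation and adhesion machinery, which couples integrins to the cytoskeleton and to kinases, had 29 of 32 genes tested. Etoposide lowered 15 and raised 4 of them in Null cells (65.5% called, against 39.6% of all genes) and lowered 8 and raised 8 in DKO cells (55.2% against 39.3%), with medians of -0.41 and -0.11 beside 0.03 for all genes in both. Tln2, a talin, fell in Null cells (-1.32 ± 0.10, adjusted p = 9.0e-07) and in DKO cells (-1.025 ± 0.104, adjusted p = 7.2e-06). Zyx, zyxin of focal adhesions, rose by 1.40 ± 0.18 in DKO cells (adjusted p = 6.3e-05) and by 0.54 ± 0.18 in Null cells (adjusted p = 0.035). DKO against Null called 4 higher and 4 lower in control (27.6%, against 19.3% of all genes) and 17 higher and 3 lower after etoposide (69.0% against 33.6%), where the median was 0.31 beside -0.01 for all genes. The largest difference was in Syk, the kinase that signals downstream of integrins and Fc receptors, where Null control cells averaged 87.5 CPM and DKO control cells 9.51 CPM (-3.21 ± 0.12, adjusted p = 2.0e-09) and 98.3 and 12.3 CPM after etoposide (-3.00 ± 0.12, adjusted p = 1.6e-09). Lyn, a kinase of the Src family, fell in Null cells with a response that was more positive in DKO cells by 0.81 ± 0.22 (adjusted p = 0.040).

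Ligands and counter-receptors had 21 of 30 genes tested, and Vcam1, Madcam1 and Fn1, ligands of α4 and α5 integrins, were among the 9 too low to test. Etoposide raised 14 and lowered 1 in Null cells (71.4% called against 39.6% of all genes, median 0.93) and raised 13 and lowered 2 in DKO cells (71.4% against 39.3%, median 0.42). Icam5, an ICAM of the αL family of ligands, rose from a mean of 1.24 to 4.62 CPM in Null cells (1.85 ± 0.20, adjusted p = 1.1e-05). DKO against Null called 10 higher and 2 lower in control (57.1%, against 19.3% of all genes) and 8 higher and 3 lower after etoposide (52.4% against 33.6%). Complement C3, whose fragment binds αM and αX, was lower in DKO cells after etoposide, at 9.30 against 41.5 CPM (-2.15 ± 0.11, adjusted p = 1.4e-08). Tnc, the matrix protein tenascin-C, was higher at 4.06 against 0.105 CPM (4.70 ± 0.28, adjusted p = 7.5e-08), and Vtn, vitronectin, at 1.22 against 0.031 CPM (3.85 ± 0.28, adjusted p = 4.5e-07).

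All 10 membrane partners, proteins that associate with integrins in the membrane, were tested. DKO cells had 5 higher and 0 lower in control (50% called, against 19.3% of all genes) and 7 higher and 0 lower after etoposide (70.0% against 33.6%, median 0.60). Plaur, the urokinase receptor, averaged 22.4 CPM in Null control cells, which etoposide brought to 126 CPM, and 151 CPM in DKO control cells, which it brought to 267 CPM, and its response was smaller in DKO cells (-1.66 ± 0.29, adjusted p = 0.0028). The tetraspanins Cd63 and Cd9 were higher in DKO control cells by 3.50 ± 0.11 (adjusted p = 5.9e-10) and 1.00 ± 0.14 (adjusted p = 2.0e-04). Etoposide raised 4 and lowered 1 in Null cells and raised 5 and lowered 0 in DKO cells (50% called in each, against 39.6% and 39.3% of all genes, shares that lie close together). The lists are described by their counts, and no test of a list was made.

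**Figure D4:**
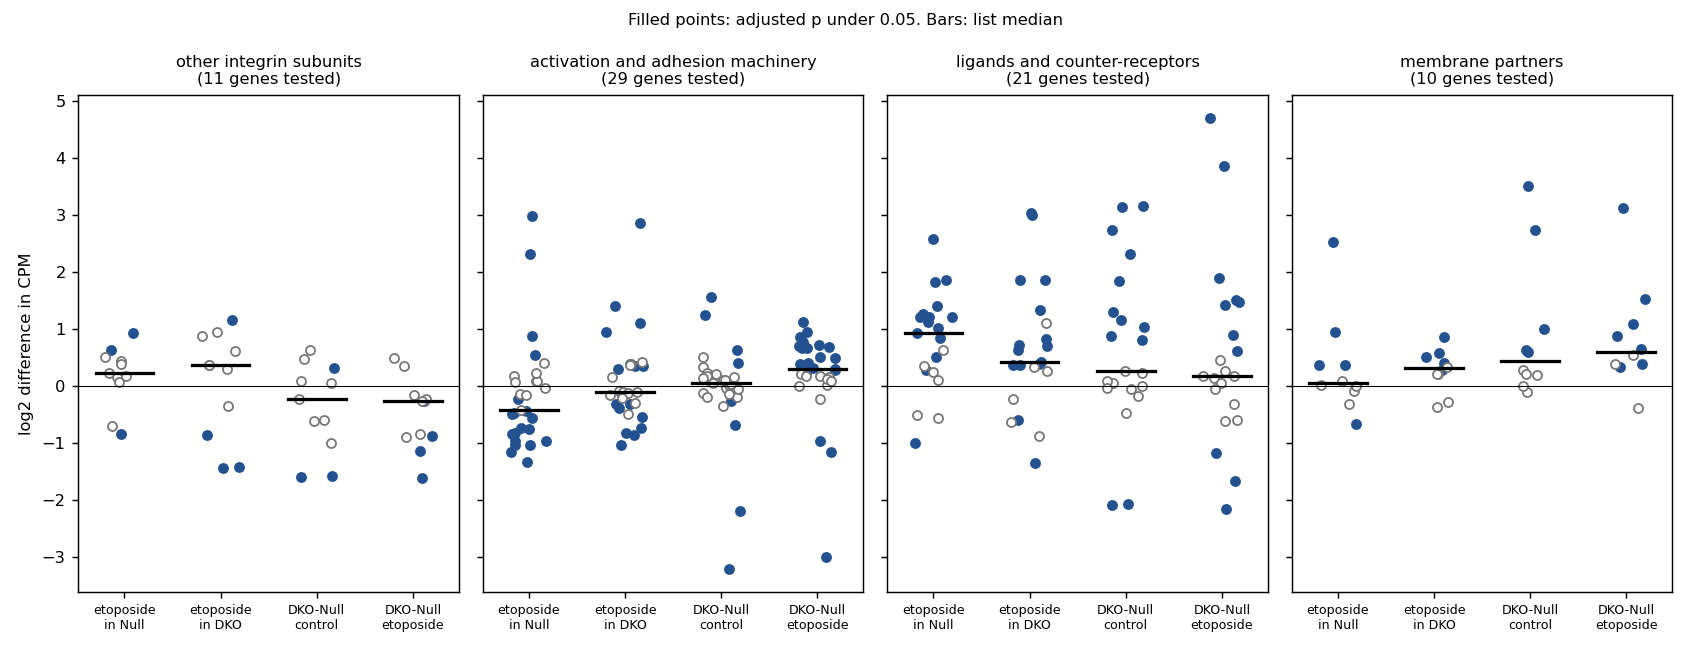
Log2 difference in CPM of each tested gene of 4 lists of integrin-related genes in 4 comparisons, with the list median as a bar and filled points for an adjusted p under 0.05. The machinery list has 17 filled points above 0 and 3 below it for DKO against Null after etoposide, with Syk lowest at -3.00.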

How the data were processed

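RNA of 12 cultures of RAW264.7 cells was sequenced by the authors as read pairs from stranded, ribosome-depleted libraries. They aligned the reads with HISAT2 to mm10, according to the submitters' processing notes. Those notes name featureCounts and the study's methods HTSeq, and the annotation release and the strand setting are not given in the sources used here. What the authors deposited are raw counts, neither normalized nor pooled. Keeping uniquely mapped pairs lowers counts where genes have near-identical copies.

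Symbols, coordinates (GRCm38) and exon lengths were taken from GENCODE M21, in which 99.43% of identifiers were found, and promoters from RefSeq (GRCm38.p6). The filter on low counts was filterByExpr (edgeR 4.0.16), which kept 99.96% of the counts. Counts were scaled by TMM (trimmed mean of M values, factors of 0.939 to 1.03) and tested as log2 CPM with a prior count of 3 by limma-trend with robust moderation (limma 3.58.1, R 4.3.3). The study's methods name limma-trend with robust moderation, and the scaling, prior count and filter were chosen here. Log2 differences are therefore on the log2(CPM) scale with that prior count, which understates changes of low genes, while values given as a fold are ratios of mean CPM with no prior count. All 12 libraries entered 1 model of 4 group means with 5 contrasts. P-values are two-sided and adjusted over 18066 genes, with calls made at an adjusted p under 0.05. The script was tested on simulated data.

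The members and gene lists were chosen with earlier results of these data known. Named were all members, Tfeb and Tfe3, at most the 3 called genes of each list and comparison with the largest difference, and the 3 genes nearest in pattern to the 3 members with the widest range. Vcam1, Madcam1 and Fn1 were named for their low levels after these were seen, and Gm49368 and Cerkl as overlapping genes. The labels name 2 RNA kits without assigning them to libraries, so a kit effect was not tested. Replicates of a group differed by 3.40 to 53.6 times the counting error in squared difference, so none was counted as a repeat. Alternatives were other scalings, filters and prior counts, edgeR's quasi-likelihood test, DESeq2 1.42.0, a replicate block, fits on the compared groups alone and leaving out each library.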

Additional observations from a re-analysis of the deposited data

Results flagged for a closer look

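For 4 members the etoposide response differed between genotypes by the test of the interaction in limma-trend. The response in DKO cells minus that in Null cells was 0.46 for Itgb2, 0.85 for Itga4, -0.64 for Itga6 and -0.46 for Itgav, on the log2 scale. Itgb2 rose in both genotypes and more in DKO cells, Itga4 fell in both and less in DKO cells, and Itga6 and Itgav rose in Null cells and were not called in DKO cells. For Itga6 and Itgav the Null control libraries lay below all DKO libraries of either condition. Groups of 3 libraries are too small for a search for outlying samples.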

How the results depend on the processing

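Over the 10 members, 5 comparisons and their alternatives, 751 of 800 values kept their direction and side of the threshold, 36 lost the call, 5 gained one and 8 changed sign. The sign changes were in values near 0 that were not called: the interaction of Itgb7 was 0.026 with library size alone and ran from -0.17 to 0.12 when single libraries were left out, and the etoposide difference of Itgal in DKO cells ran from -0.01 to 0.16. The 4 members called in the interaction became 2 with a replicate block, which kept Itgb2 and Itga6 and lost Itga4 (0.85, adjusted p = 0.0705) and Itgav (-0.46, adjusted p = 0.0709), and 2 to 5 when single libraries were left out, where fewer libraries entered the fit. DESeq2 called Itgax as well (-0.96, adjusted p = 0.0093). Samples with the same replicate number did not deviate together: the correlations of their deviations ran from -0.54 to 0.39, and not every library correlated best with its own number, so the numbers were not taken as pairs. With the replicate block, Itgam in DKO against Null after etoposide lost its call too (-0.40, adjusted p = 0.062), and no other call of a member changed. On only the groups compared, 2031 genes were called for DKO against Null in control cells in place of 3490, and the members called stayed at 8. Apart from the interaction, the counts of members called stayed within 1.5 times under every alternative run. Depth limits Itgax in Null control cells (3 to 23 counts) and Itgb7.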
